A study of Mus musculus with 6 samples.

Results

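The stretch of mouse chromosome 18 described here runs from position 74000000 to 74900000 of GRCm38 and holds the genes Ska1, Cxxc1, Mbd1, Myo5b and Acaa2. It was taken from a table of ATAC-seq peaks, which are places where a transposase cut and tagged open DNA more often than around them, and 59 of the 123510 peaks of that table start in it. The stretch was chosen on measured values: its inner part, from 74170201 to 74431650, was selected on the difference in accessibility between the Smarcad1-KO and the WT libraries. The inner part is 261.45 kb long and holds 19 of the 59 peaks, and the other 40 peaks make up the rest of the span. Values of KO against WT below are therefore given as a description, without a test of that difference.

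Smarcad1 is a chromatin remodeller of the SWI/SNF-related family that helps to keep silent, histone-methylated chromatin in place. The libraries were made from nuclei of whole crypts of the small intestine of male C57BL/6 mice, with 3 WT and 3 KO libraries. In the KO mice both Smarcad1 alleles were floxed and a Cre transgene driven by the Villin promoter was active in the intestinal epithelium, so the deletion was directed at the epithelium only. Of the 4 peaks named for Smarcad1, none lay over the floxed exons (12 to 14 in the GENCODE transcript used here), so these data hold no check of the deletion. The ages of the mice and any Cre or floxed allele in the WT mice were not given in the sources used here for these libraries. Nor do the labels say whether each library came from 1 mouse, so the spread between the 3 libraries of a group may be partly technical.

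Reads in peaks ran from 6180717 to 16301164 in the WT libraries and from 4339306 to 7721797 in the KO libraries. The value of a peak in a library is the log2 of its read number after scaling to the deepest library. It is called log2 normalized reads here, and 1 on this scale is a doubling. As a check of the material, 9 of 14 epithelial marker genes had a peak within 1 kb of their start, at mean log2 values of 6.85 to 9.80. The stem cell genes Lgr5 and Olfm4 were among them, while Epcam, Vil1, Krt8, Krt19 and Ascl2 had no such peak. A missing peak under this rule therefore does not show that a cell type is absent. None of the 6 leukocyte markers had such a peak, and of the 6 markers of stroma and endothelium only the collagen gene Col1a1 had one, at a mean of 6.19 and a KO minus WT of 0.35. A part of other cell types in the differences below was not tested. In such mixed nuclei, a change in the number of cells with an open site cannot be told apart from a change in how open the site is in each cell.

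The genes of the span do unrelated work. Ska1 encodes a subunit of the SKA complex, which holds kinetochores to the ends of spindle microtubules in dividing cells. Cxxc1 encodes a protein with a CXXC zinc finger that binds unmethylated CpG and belongs to the SET1 histone methyltransferase complex, whereas Mbd1 encodes a protein that binds methylated CpG and acts as a repressor. Myo5b encodes an unconventional myosin that moves recycling vesicles towards the apical membrane of enterocytes, and its loss causes microvillus inclusion disease. Acaa2 encodes the mitochondrial thiolase of the last step of fatty acid beta-oxidation. Between Mbd1 and Myo5b lies Cfap53, named Ccdc11 in the deposited table, which encodes a protein of cilia.

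Along the span, 13 peaks had a KO minus WT over 0.5, and 11 of the 13 lay in the inner part, between the genes Cxxc1 and Myo5b. These 11 peaks were in Cfap53 or intergenic, and none of the 13 covered a gene start. The median of KO minus WT over the 19 inner peaks was 0.57, with a range of -0.19 to 1.74. Over the other 40 peaks of the span the median was 0.05, with a range of -0.25 to 1.74, and over the 20 peaks on each side of the inner part it was 0.06, with a range of -0.39 to 0.79. The median over all 123510 peaks was -0.02. Of the inner peaks, 16 of 19 had a higher KO than WT mean and 11 of 19 exceeded 0.5. Of the rest of the span, 25 of 40 were higher and 2 of 40 exceeded 0.5, both of which are described with their genes below. Over all 123510 peaks, 46.9% had a higher KO than WT mean and 3670 exceeded 0.5.

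**Figure D1:**
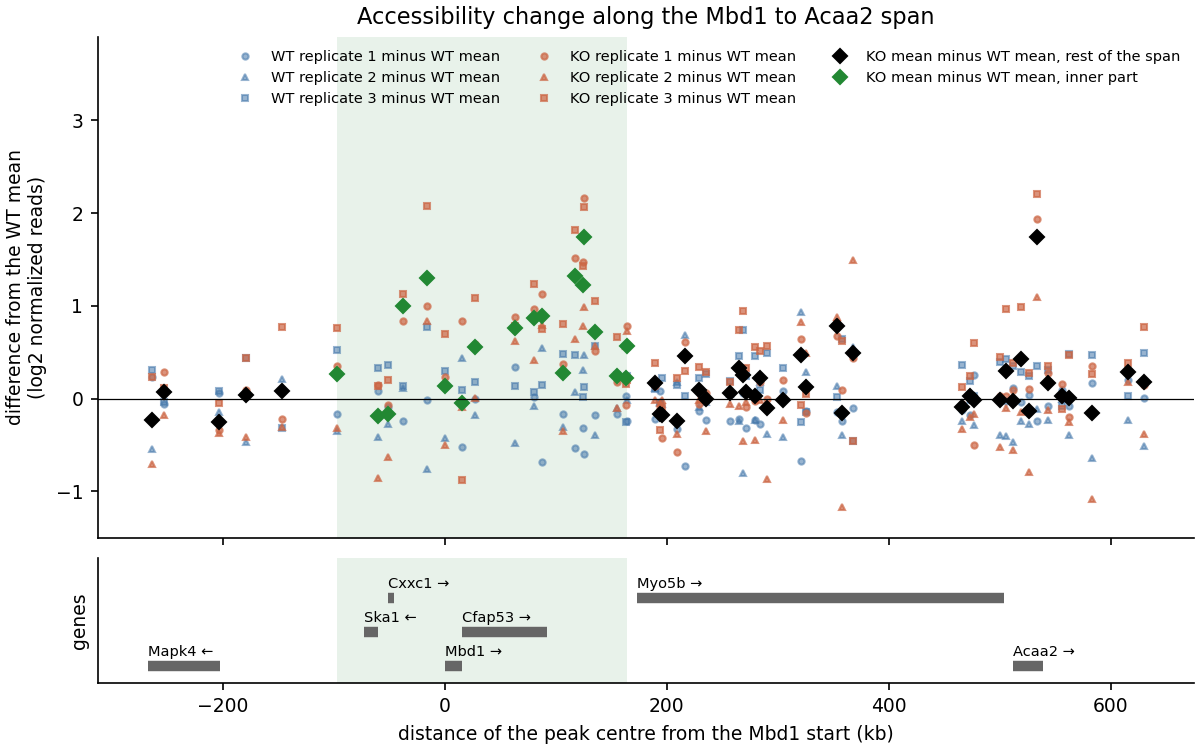
The upper panel plots, for each of the 59 peaks, the log2 value of each WT library (blue) and each KO library (orange) minus the WT mean on the y axis against the distance of the peak centre from the Mbd1 start in kb, with diamonds for the KO mean (green in the inner part, black in the rest), and the lower panel shows the protein-coding genes with arrows for their strand. The diamonds of the inner part (shaded) lie at a median of 0.57, those outside it at a median of 0.05, and single peaks of up to 1.74 stand in both.

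A stricter description asks that all 3 KO values lie above all 3 WT values of a peak. This held at 8 of 19 inner peaks, at 2 of the other 40 peaks of the span and at 1 of the 40 peaks flanking the inner part. Over all peaks it held at 2.70%. The opposite order, all KO values below all WT values, held at none of the 59 peaks of the span and at 4.10% of all peaks. As the inner part was selected on this contrast, nothing is read from these shares.

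The linear model of limma, run on all peaks with Benjamini-Hochberg adjustment, called 0 of the 59 peaks and 0% of all peaks at an adjusted p below 0.05, and voom on the recovered reads called 3 peaks, none of them in the span. With KO replicate 2 left out, limma called 30 peaks by the same adjusted p, 2 of them in the span (the peak at chr18:74392801-74393400 and a peak in an Acaa2 exon). With the replicate number as a block in the model, it called 272 peaks (0.220% of all). Of these, 6 were in the span, 5 of them in the inner part. The sources used here do not say whether same-numbered libraries belong together. Without adjustment or block, 11 of the 59 peaks had a limma p below 0.05 and a higher KO mean, 9 of them in the inner part. Over all peaks the share in that direction was 0.909%. None of the 59 had such a p with a lower KO mean, against 1.37% of all peaks. The table of changed peaks from the authors' edgeR test lists 4 peaks of the span, 3 of them in the inner part, against 0.0599% of all peaks. These counts use the contrast that chose the span and are likewise only a description.

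Per library, the same difference appeared as a change in the level of the inner part relative to its surroundings. The median over the 19 inner peaks was 5.06, 5.63 and 5.75 in WT replicates 1 to 3, and 6.65, 5.69 and 6.64 in KO replicates 1 to 3. The highest WT value and the lowest KO value, of WT replicate 3 and KO replicate 2, thus overlapped. The median over the 40 flanking peaks was 6.67, 6.70 and 7.02 in the WT libraries and 6.60, 6.54 and 6.93 in the KO libraries. With the flank median subtracted within each library, the inner part stood at -1.61, -1.06 and -1.27 in the WT libraries and at 0.05, -0.85 and -0.29 in the KO libraries. On this measure the groups did not overlap, and KO replicate 2 was again the closest to WT. The means were -1.31 ± 0.278 (SD, n = 3) in WT and -0.36 ± 0.456 (SD, n = 3) in KO, which differ by 0.95. Set against the rest of the span in place of the flanks, the difference was 0.75.

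**Figure D2:**
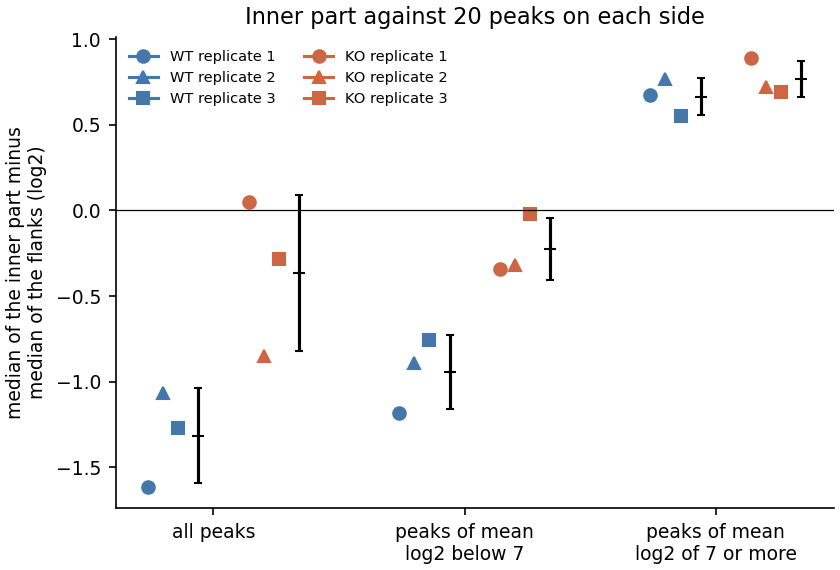
Each point is 1 library (blue WT, orange KO) and gives the median log2 value of the inner peaks minus the median of the 20 peaks on each side, for all peaks and for weak and strong peaks apart, with the mean and SD of each group in black. WT and KO libraries lie apart for all peaks and for the weak peaks, with differences of 0.95 and 0.72, and overlap for the strong peaks, with a difference of 0.10.

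The difference lay mainly in weak peaks. Of the inner peaks, 14 had a mean below 7 on the log2 scale, with a median KO minus WT of 0.74, and 7 of the 14 had all KO values above all WT values. The 5 stronger inner peaks had a median of 0.25, and 1 of them, with a mean of 7.03, was ordered in this way. Among the weak peaks of the rest of the span the median was 0.09 over 23 peaks, and among all 97209 weak peaks of the table it was -0.04, with 3.17% of these ordered as KO above WT. Among all 26301 stronger peaks the median was 0.02 and the share 0.943%. With only strong peaks in both medians, the inner part stood above its flanks by 0.67, 0.77 and 0.55 in the WT libraries and by 0.89, 0.72 and 0.69 in the KO libraries, and the groups overlapped.

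**Figure D3:**
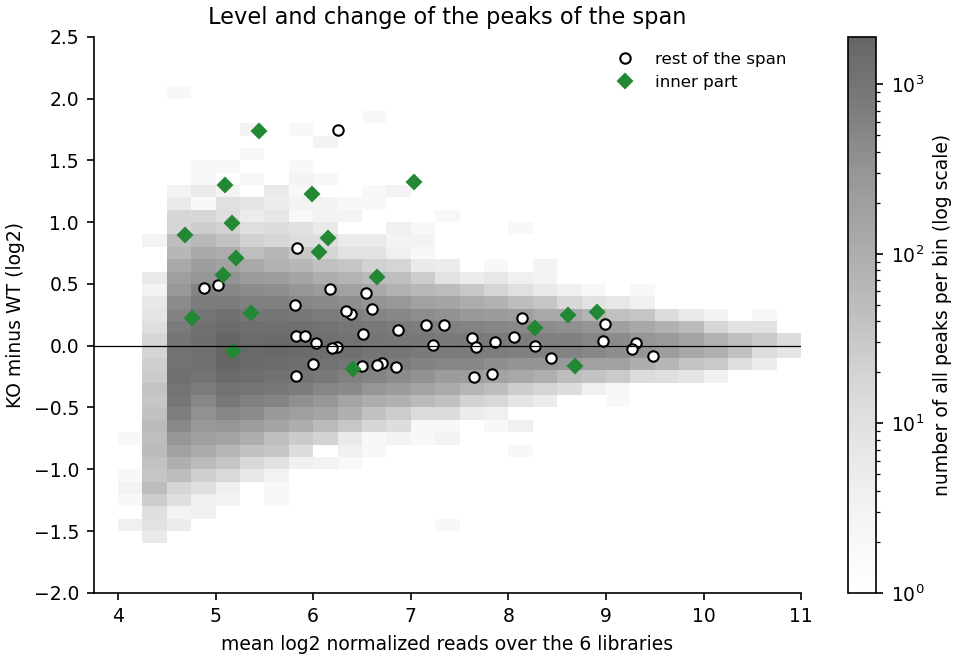
KO minus WT (y axis, log2) is plotted against the mean log2 normalized reads over the 6 libraries (x axis) for the inner peaks (green diamonds) and the rest of the span (open circles), over the number of all 123510 peaks per bin in grey on a log scale. The inner peaks of up to 1.74 lie among levels of 4.69 to 7.03, while the other 4 inner peaks with a mean of 7 or more lie further right, between -0.16 and 0.27.

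The 3 inner peaks in the authors' table are intergenic and lie within 8.85 kb, between the end of Cfap53 and the start of Myo5b. The first, at chr18:74384551-74385450, had log2 values of 5.83, 6.43 and 6.83 in the WT libraries and 7.88, 7.01 and 8.19 in the KO libraries. Its KO minus WT was 1.33, a 2.51-fold higher level, and behind it stood 29, 47 and 114 reads in WT and 108, 90 and 73 reads in KO. All KO values lay above all WT values, although KO replicate 2 exceeded the highest WT library by little. The second, at chr18:74391601-74392350, had values of 5.06, 5.69 and 5.39 in WT and 6.85, 6.16 and 6.80 in KO, a difference of 1.23. The third, at chr18:74392801-74393400, had values of 3.97, 5.05 and 4.70 in WT and 6.74, 5.56 and 6.64 in KO. This difference of 1.74 was the largest in the inner part, 3.34-fold, and rested on 8, 18 and 26 reads in WT and 49, 33 and 25 reads in KO. In each of the 3 peaks KO replicate 2 was the lowest of the KO libraries.

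A further 3 of the 8 ordered inner peaks lay in introns of Cfap53. At chr18:74330851-74331600 the values were 6.02, 5.20 and 5.81 in WT and 6.55, 6.30 and 6.46 in KO, with a KO minus WT of 0.76. At chr18:74347651-74348550 they were 5.73, 5.63 and 5.78 in WT and 6.68, 6.13 and 6.95 in KO, with a difference of 0.87. At chr18:74355151-74355450 the difference was 0.89, on only 6 to 23 reads per library. The start of Cfap53 itself, at chr18:74282851-74283300, did not share this order: its values were 4.67, 5.63 and 5.29 in WT and 6.03, 5.10 and 4.32 in KO, with a difference of -0.05. Over the 5 peaks of Cfap53 the median difference was 0.76.

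The remaining 2 ordered peaks were intergenic and lay between Cxxc1 and Mbd1. At chr18:74230201-74230650 the values were 4.43, 4.79 and 4.81 in WT and 5.52, 5.69 and 5.80 in KO, with a difference of 0.99 and little spread within either group. At chr18:74251201-74251650 they were 4.43, 3.69 and 5.21 in WT and 5.45, 5.27 and 6.52 in KO, with a difference of 1.30. In the latter the lowest KO value exceeded the highest WT value by little.

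**Figure D4:**
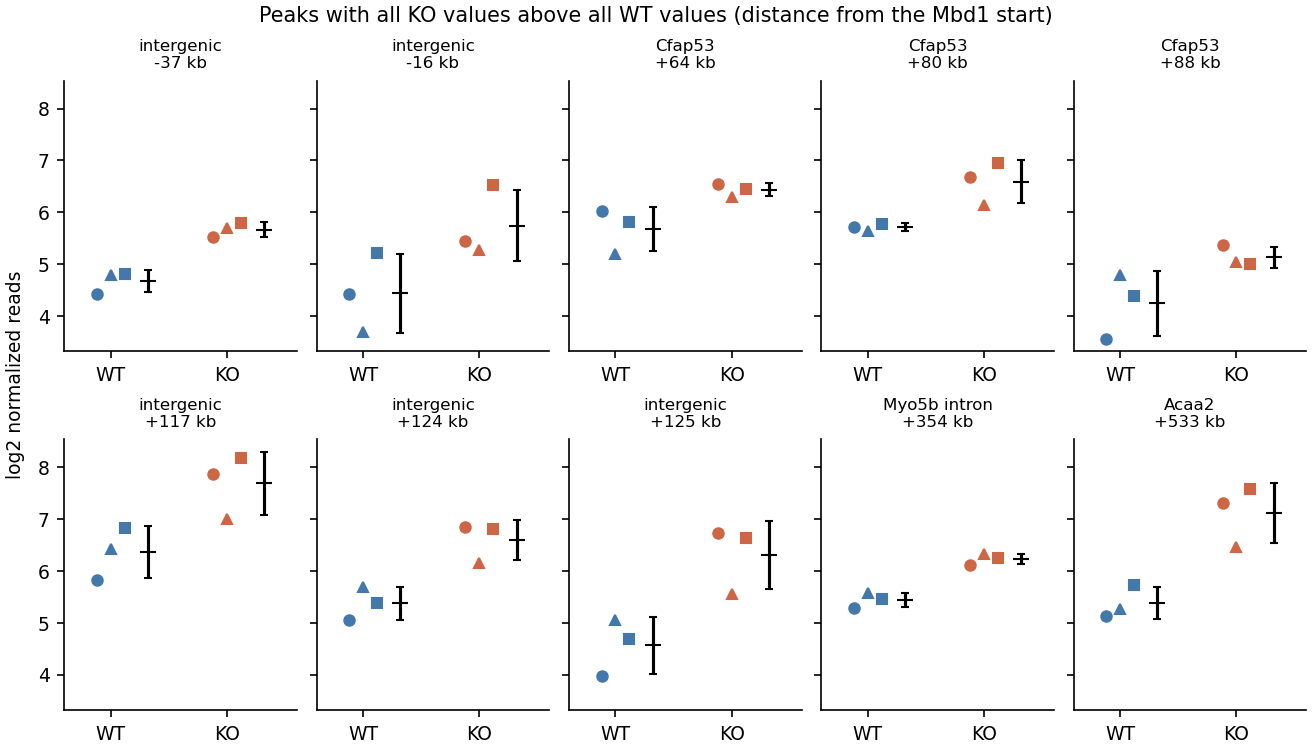
Log2 normalized reads of the 10 peaks of the span in which all 3 KO values (orange) lie above all 3 WT values (blue), in order of their distance from the Mbd1 start, with circles, triangles and squares for replicates 1, 2 and 3 and the mean ± SD of each group in black. The first 8 panels are the inner peaks, with differences of 0.76 to 1.74, and the last 2 are the peaks in Myo5b and Acaa2, with differences of 0.79 and 1.74.

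The position and base composition of the 8 ordered inner peaks were not used to choose them. None covered a gene start, while 4 of the other 11 inner peaks did, against 13.6% of all peaks and 6.55% of all weak peaks within 1 kb of a gene start, so 0 of 8 is near the share of weak peaks. They were 300 to 900 bp wide. The ratio of observed to expected CpG is low where methylated CpG has been lost over time and high in CpG islands. Its median was 0.13 in the 8 peaks (range 0 to 0.38) and 0.38 in the other 11. It was 0.16 over all peaks and 0.14 over all weak peaks, so the 8 peaks were near the weak peaks. The median GC content was 46.2% in the 8 peaks, 49.7% in the other 11, 47.6% over all peaks and 47.1% over all weak peaks. Repeats, marked as lower-case bases in the RefSeq sequence of GRCm38, covered a median of 28.0% of the 8 peaks, ranging from 10.7% to 82.9%. The median was 17.6% in the other 11, 16.4% over all peaks and 19.3% over all weak peaks. With 8 and 11 peaks these ranges overlapped, and the peaks were sorted by their KO and WT values, so no test was made.

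The gene starts within the inner part had small mean differences between KO and WT. The 4 peaks that cover them had CpG ratios of 0.36 to 0.85 and differences of -0.19 to 0.14. Each difference was smaller than the SD of either group, so a lack of change is not shown. At the Cfap53 start, on 5 to 39 reads, the SDs were 0.486 in WT and 0.857 in KO. The single Mbd1 peak, at chr18:74267551-74268900 over the first exon, had values of 8.33, 7.77 and 8.50 in WT (8.20 ± 0.378, SD, n = 3) and 8.43, 7.70 and 8.89 in KO (8.34 ± 0.601). The difference of 0.14 is smaller than either SD, and replicate 2 was the lowest library of both groups. The single Cxxc1 peak, at chr18:74215501-74217150, had values of 8.68, 8.49 and 9.13 in WT and 8.70, 8.14 and 8.96 in KO. Its difference of -0.16 compares with SDs of 0.325 and 0.419. The single Ska1 peak, at chr18:74207551-74208150, had values of 6.59, 6.09 and 6.83 in WT and 6.65, 5.65 and 6.64 in KO, and differed by -0.19 with SDs of 0.379 and 0.574. The groups overlapped at Mbd1, Cxxc1 and Ska1, and the sign of each of these differences turned when a single library was left out.

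**Figure D5:**
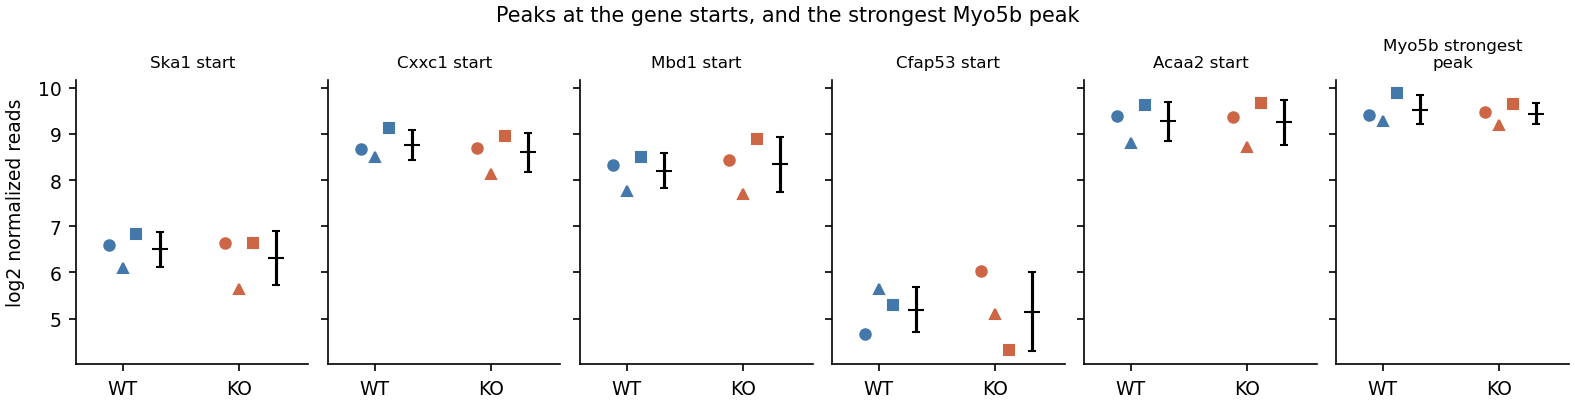
Log2 normalized reads of the peaks that cover the starts of Ska1, Cxxc1, Mbd1, Cfap53 and Acaa2, and of the strongest Myo5b peak, in WT (blue) and KO (orange), with circles, triangles and squares for replicates 1, 2 and 3 and the mean ± SD in black. In each panel the groups overlap, with differences between -0.19 and 0.14.

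The other strong inner peaks were intergenic. The peak at chr18:74373151-74375100, with the highest mean of the inner part, had values of 8.60, 8.46 and 9.25 in WT and 9.14, 8.42 and 9.57 in KO, with a difference of 0.27. The peak at chr18:74422201-74423700 differed by 0.25. Both groups overlapped in each, although these peaks lie on either side of the 3 intergenic peaks in the authors' table.

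The inner part had no sharp border in the values. On its left side the last peak outside, at chr18:74120551-74121150, differed by 0.08 and the first peak inside, at chr18:74170201-74170650, by 0.27. On its right side the last peak inside, at chr18:74431201-74431650, differed by 0.57 and the first peak outside, at chr18:74455951-74457300 in the first part of Myo5b, by 0.17. The last peak inside is also the peak nearest to the annotated Myo5b start at 74440936, which no peak of the table covers. Its values of 4.56, 4.79 and 5.04 in WT and 5.58, 5.52 and 5.00 in KO overlapped, on 8 to 33 reads.

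Myo5b, the longest gene of the span at 330.558 kb, carried 25 named peaks, all of them outside the inner part. Their KO minus WT had a median of 0.06 and a range of -0.24 to 0.79, and 24 of 25 lay within 0.5 of no difference. The median over the 25 peaks taken within each library first gave a KO mean minus WT mean of -0.08, so the sign depended on the order of the steps. The 10 stronger Myo5b peaks lay between -0.10 and 0.22. The strongest, at chr18:74732701-74735100 over coding exons, had values of 9.40, 9.28 and 9.89 in WT and 9.46, 9.20 and 9.65 in KO, a difference of -0.09 that is smaller than the SDs of 0.324 and 0.227. The exception was a weak intronic peak at chr18:74620801-74621550, with values of 5.29, 5.58 and 5.46 in WT and 6.12, 6.33 and 6.24 in KO. Its difference of 0.79 exceeded the spread within both groups, with SDs of 0.143 and 0.102.

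At Acaa2 a peak over a coding exon was higher in KO, while the peak at the gene start was not. The start lies in a peak at chr18:74778001-74780550 that also covers Scarna17, a small Cajal body RNA, by which the table names it. Its values were 9.39, 8.81 and 9.62 in WT and 9.37, 8.72 and 9.66 in KO, a difference of -0.03. A weaker peak over a coding exon, at chr18:74800501-74801400, had values of 5.14, 5.27 and 5.73 in WT and 7.31, 6.47 and 7.58 in KO. All KO values lay above all WT values, by a mean of 1.74 on the log2 scale or 3.35-fold, on 18 to 73 reads per library. It is the largest difference of the span and lies outside the inner part, and KO replicate 2 was again the lowest KO library. The other Acaa2 peaks differed by 0.43, -0.14 and 0.17, with overlapping groups, and the median of the differences of the 4 peaks named for the gene was 0.30. With the median taken within each library first, KO minus WT was 0.41, and it was 0.16 without KO replicate 3 and 0.72 without KO replicate 2. With peaks of a mean of at least 100 on the linear scale only, it was 0.02.

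At the low end of the span no peak was ordered with all KO values below WT. The 3 smallest differences were -0.25 at the starts of Mapk4, a kinase gene, and Gm9925 (chr18:74063701-74065650), -0.24 in a Myo5b intron (chr18:74476201-74476800) and -0.23 in a Mapk4 intron (chr18:74003251-74004750). The first had values of 7.83, 7.62 and 7.85 in WT and 7.43, 7.40 and 7.72 in KO. WT and KO overlapped in all 3.

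Genes elsewhere in the genome that work with those of the span or are related to them were read at the strongest peak within 1 kb of their start. Of 6 genes of the methyl-CpG-binding domain family and of MBD1 partners 4 were measured. Their differences were -0.09 to 0.12, such as 0.12 at Mbd2 and -0.03 at Mbd3. Of 8 genes of the SET1 complex 7 were measured, with differences of -0.19 to 0.22, such as 0.11 at Setd1a, which encodes a catalytic subunit. All 6 genes of the SKA and NDC80 kinetochore complexes had differences of -0.38 to -0.01, with -0.24 at Ska2 and -0.01 at Ska3. All 6 apical trafficking genes had differences of -0.25 to 0.13, with 0.13 at Rab11a, a GTPase that binds Myo5b. All 10 genes of fatty acid oxidation had differences of -0.14 to 0.32, with Hadha and Hadhb read at the same peak, which counts for both. Acadvl, which encodes an acyl-CoA dehydrogenase for very long chains, had all KO values above all WT values with 0.32. The medians of the 5 lists lay between -0.10 and 0.05. The median was 0.003 over all 16854 peaks within 1 kb of a gene start and -0.02 over all peaks. Limma with Benjamini-Hochberg adjustment called none of the peaks of the 5 lists.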

How the data were processed

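ATAC-seq was run on nuclei of small intestinal crypts, with 3 WT and 3 Smarcad1-KO libraries. The authors trimmed reads with Trim Galore 0.4.1, mapped them to GRCm38 with Bowtie 2 (2.2.5), removed duplicates and called 1 set of MACS peaks in SeqMonk. The libraries pooled for peak calling are not given in the sources used here. The deposited values are log2 read counts per peak, which the authors scaled to the largest library. A second deposited table lists 74 peaks past the edgeR threshold of the authors, with an adjusted p-value column that was not used. The paper reports more changed sites than this, and the reason for the difference was not examined. Only membership of that table was used here.

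Peaks were selected by start position, and genes follow the names in the deposited table. The span, its inner part, the genes and the lists were chosen with earlier results of these data known. Group and replicate number came from the sample titles. Because the deposited unit is log2 and not counts, limma (3.58.1, R 4.3.3; lmFit, eBayes with trend, two-sided, no covariate) was run on all 123510 peaks with Benjamini-Hochberg adjustment in place of the authors' edgeR test. It was tested on simulated data, where the planted changes were larger than any difference of the span and same-numbered libraries shared no effect. That test does not show how well changes of the size seen here would be found. On the linear scale every value is a whole multiple of a constant per library (100% whole within 0.05 of a read), which gave reads per peak, and these served for depth and for limma voom. The authors removed duplicates, but no molecular identifiers are described, so some copies of the same molecule may remain. Read numbers may then understate the error.

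Peaks described one by one were those at or nearest to the start of each gene and the strongest of each gene, those at the borders of the inner part, the 3 largest and 3 smallest differences, and those in the authors' table. The other peaks with all KO above all WT values, the Cfap53 start, the 2 other strong inner peaks and the other Acaa2 peaks were added after their values were seen, as was the division at a log2 mean of 7. Gene positions came from GENCODE vM21 (GRCm38). Alternatives were other scalings, a pseudocount of 5, a minimum mean of 100, each library left out, voom, the replicate number as a block, a threshold of 0.1, other summaries, 50 flanking peaks on each side, and gene bodies in place of names.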

Additional observations from a re-analysis of the deposited data

How the results depend on the processing

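Of 134 alternative values, 116 were counted as unchanged. For differences this meant a move of less than 1 SD between libraries, with no check of the sign. For calls it meant that none were made, and for ordered peaks a count within a set factor of the 8 found. The changes of sign at Mbd1, Cxxc1 and Ska1 given below are thus among the 116. The inner part against its flanks (0.95) and against the rest of the span (0.75) fell to 0.113 and 0.164 with a minimum mean of 100 on the linear scale, to 0.304 and 0.301 with summed linear values, and to 0.104 and 0.178 with peaks of a mean log2 of 7 or more only, an alternative chosen after seeing the data. The first was 0.541 with means over peaks. The minimum kept 6 of the 19 inner peaks, so that 1 was ordered with all KO above all WT in place of 8, gave 0.0955 in place of -0.08 at Myo5b and 0.0157 in place of 0.41 at Acaa2, and left Ska1 without a value. These gene values take the median over a gene's peaks within each library before KO minus WT. The minimum, the summed values and the limit at 7 weigh the strong peaks more by construction.

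Leaving out 1 library at a time gave 0.746 to 1.20 against the flanks, 0.566 to 0.920 against the rest, 8 to 11 ordered inner peaks, -0.14 to 0.46 at Mbd1, -0.35 to 0.07 at Cxxc1, -0.40 to 0.14 at Ska1, -0.18 to -0.0046 at Myo5b and 0.163 to 0.722 at Acaa2. Mbd1 turned negative without WT replicate 2 (-0.07) or KO replicate 3 (-0.14). Cxxc1 turned positive without KO replicate 2 (0.07) or WT replicate 3 (0.01), and Ska1 without KO replicate 2. Calls by limma over all peaks ranged from 0 to 30 and in the span from 0 to 2. Without KO replicate 2 there were 30, and 2 in the span, the Acaa2 exon peak and the intergenic peak at chr18:74392801-74393400. Without WT replicate 3 there was 1 call.

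Median centring and the trimmed mean of M values each gave 2 calls over all peaks, quantile normalization 3 and voom 3, with 0 in the span. With the replicate number as a block, 272 peaks (0.220%) were called, 199 of them higher in KO, and 6 in the span. Same-numbered libraries correlated by 0.04, 0.42 and 0.41 after subtraction of group means. Libraries of different number were not compared in this way, so these values do not settle whether the numbers pair the libraries. The main fit did not take them as pairs. For the inner part no block was fitted, and the median of the 3 KO minus WT differences of same-numbered libraries was taken instead. It was 0.982 against the flanks and 0.629 against the rest. Against the flanks the libraries of replicate 2 lay closest together, at -1.06 in WT and -0.85 in KO. The cause of these differences in calls was not tested. Reads of 6 to 114 per library limit the precision of the ordered inner peaks.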
